A study of Mus musculus with 25 samples.

Results

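Exocrine pancreas of young mice was compared with islets of Langerhans of adult mice over every interval on chromosomes 1 to 19 of the deposited methylation table. The table holds 22749 intervals, 22300 of them on these chromosomes, and 22272 passed the filter on low counts. The comparison used 15 of the 25 libraries: 5 of exocrine tissue at postnatal day 21 (P21), 5 of control islets at postnatal day 180 (P180) and 5 of small-litter islets at P180. Exocrine tissue was sampled at P21 only, so in this comparison tissue and age cannot be told apart, and the 10 libraries of P21 islets were set beside it to show which differences had shrunk or grown between the ages.

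All mice were of the FVB strain, and the labels name no altered gene and no agent. Control mice grew up to P21 in litters of 9 pups and small-litter mice in litters of 4 pups, the latter being a common model of overfeeding in early life. Exocrine tissue was whole pancreas of control mice, which the series' design text puts at about 98% exocrine, and it therefore still held islets. Islets were hand-picked in 3 rounds. Each group held 5 mice, and the litters they came from are not given, so p-values measure the spread between these samples, some of which may be siblings.

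DNA methylation at CpG sites is copied when cells divide, and its pattern differs between cell types. The exocrine pancreas consists mainly of acinar cells, which secrete digestive enzymes into ducts, while islets hold the hormone cells, most of them insulin-secreting beta cells. Both arise from common progenitors in the embryonic pancreas.

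Methylation was read with MSA-seq, in which SmaI first cuts CCCGGG sites that carry no methyl group and leaves blunt ends. XmaI then opens the methylated copies of the same site and leaves overhangs that accept an adaptor, so that amplified fragments run from one methylated site to the next. The unit of measurement is the interval between neighbouring sites, 61 to 3000 bp long. Its read count, given here as CPM (counts scaled to a common library size with TMM factors), increases with methylation at both end sites and has no absolute zero or full level. In bulk samples a change in the share of cells and a change per cell cannot be told apart, and the labelled tissues could not be checked against expression markers because the files hold genomic DNA counts. Positions are given as in the table, on mouse build mm9, and whether starts count from 0 or 1 is not stated. No annotation of that build was used, so intervals are named by position and not assigned to genes.

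Exocrine libraries held 4427238 to 7739961 counts each, with 3527467 to 5862511 in control P180 islets and 3593928 to 7080177 in small-litter P180 islets. One islet library stood apart from its group. At 2155 intervals lower in exocrine tissue than in small-litter P180 islets, a choice that used no control P180 library, control P180 replicate 3 had the lowest value of its 5 libraries at 79.6%, and the other 4 libraries at 3.06% to 7.80%. At the 1447 intervals higher in exocrine tissue it had the highest value at 46.8%, against 8.57% to 18.4% for the other 4. Among small-litter P180 islets, chosen for in the mirrored way, replicate 3 was the lowest at 51.2% of 2621 intervals, and replicates 3 and 4 were the highest at 33.8% and 35.7% of 2194. The libraries' trends on interval length also differed, with correlations between a library's deviation and length of -0.114 to 0.484 in exocrine tissue and -0.389 to 0.217 in P180 islets. Whether control P180 replicate 3 held carried-over exocrine tissue or material of another sample was not tested, so its values may not be those of islets alone. The part of the length trends was tested only by removing them, and the main counts and named intervals are given below with and without control P180 replicate 3.

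Exocrine tissue and adult islets differed in both directions. With edgeR's robust quasi-likelihood test and Benjamini-Hochberg adjustment at 0.05, 3164 of 22272 intervals (14.2%) were higher in exocrine tissue and 3584 (16.1%) were lower. The lower side held the larger differences. The median log2 fold change of the called intervals was 0.74 on the higher side and -0.99 on the lower side, beside -0.01 over all intervals tested. Over 2-fold differences numbered 862 higher (3.87%) and 1769 lower (7.94%), and over 4-fold differences 38 higher (0.171%) and 268 lower (1.20%). All 5 exocrine values lay above all 10 islet values at 679 intervals (3.05%) and below them at 682 (3.06%). Without control P180 replicate 3 the calls were 3707 higher and 4249 lower, and 947 (4.25%) and 1211 (5.44%) intervals showed no overlap with the remaining 9 islet libraries. Without exocrine replicate 1 the higher calls numbered 2001, and those over 4-fold 19.

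The intervals that differed most were weakly represented in the tissue with the lower value. Among the 268 intervals over 4-fold lower, the median level was 1.68 CPM in exocrine tissue and 9.35 CPM in P180 islets, and 81 had an exocrine mean under 1 CPM. The 38 intervals over 4-fold higher had medians of 7.20 CPM in exocrine tissue and 1.47 CPM in P180 islets. Differences of up to 2-fold were found at better-covered intervals, with medians of 48.0 against 30.9 CPM for the 2302 higher and 20.6 against 32.9 CPM for the 1815 lower. For differences up to 2-fold, 2 to 4-fold and over 4-fold, median P21 islet levels were 30.2, 4.28 and 1.90 CPM at the higher intervals. At the lower ones they were 34.1, 13.5 and 11.6 CPM. The choice by fold size itself favours a low level in the tissue with the lower value, so these levels only describe the intervals chosen. The filter on low counts could be passed through exocrine tissue alone or through a single islet group alone, so this limit holds for both directions. At 7 of the 38 intervals over 4-fold higher the P180 islet mean was under 1 CPM. Of the 1501 intervals 2 to 4-fold lower, 22 had an exocrine mean under 1 CPM. Mice of one group differed from one another by a median coefficient of variation of 26.3% in exocrine tissue at the higher intervals and 29.2% at the lower ones, beside 26.9% over all intervals.

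The direction of the difference went with interval length. Of the 2235 intervals of 61 to 238 bp, 41.5% were lower in exocrine tissue and 1.74% higher, with a median log2 fold change of -0.73. Of the 2228 intervals of 2516 to 3000 bp, 29.5% were higher and 3.28% lower, with a median of 0.40. Between these ends, from 442 to 2515 bp, the medians stayed between -0.07 and 0.11. The called intervals had a median length of 1477 bp on the higher side and 561 bp on the lower side, beside 1170 bp over all tested. When each library's trend on length was removed, the calls were 3500 higher and 3258 lower, and 34 higher and 171 lower over 4-fold. The part of the libraries' own length trends in the remaining differences was not tested.

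**Figure D1:**
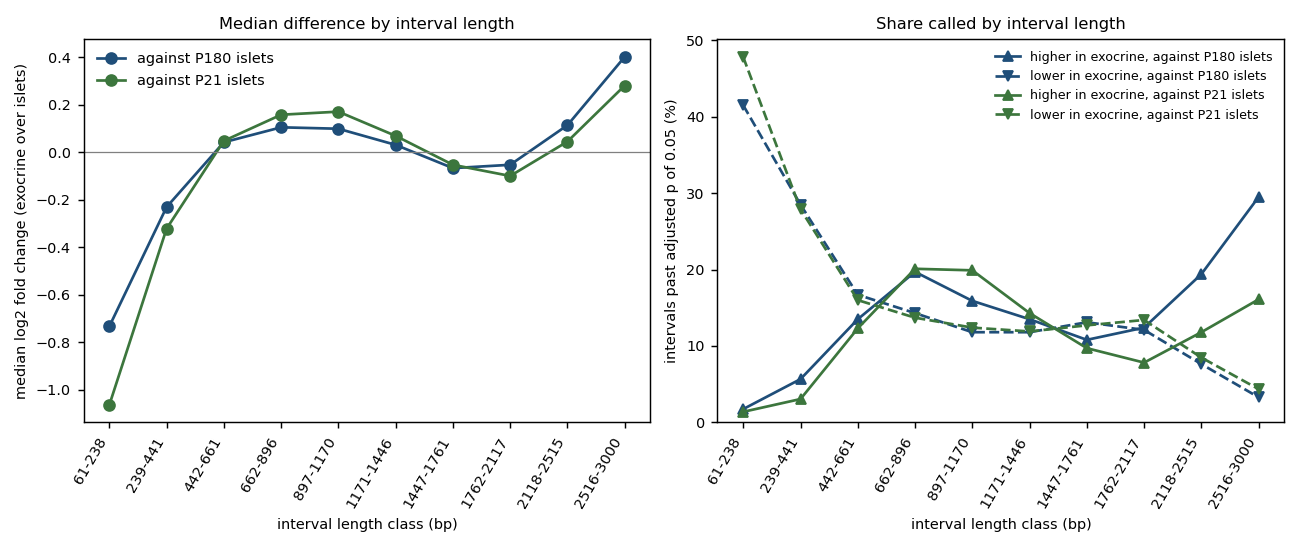
Interval length and the tissue difference, in 10 length classes (x axis, bp). The left panel gives the median log2 fold change of exocrine tissue over islets and the right panel the percentage of intervals past an adjusted p of 0.05 in each direction, against P180 islets (blue) and P21 islets (green). The shortest class is lower in exocrine tissue, with medians of -0.73 and -1.06, and the longest class is higher, with medians of 0.40 and 0.28.

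Both litter groups of adult islets gave the difference. Against control P180 islets, exocrine tissue had 2162 higher (9.71%) and 2995 lower intervals (13.4%), and against small-litter P180 islets 1719 (7.72%) and 2384 (10.7%). These contrasts share the exocrine libraries. The test of their difference, small-litter against control P180 islets, called 0 intervals with edgeR, where 223 had an unadjusted p under 0.05. DESeq2 and limma voom also called 0, with 236 and 870 at an unadjusted p under 0.05.

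Of the intervals higher in exocrine tissue, 443 met the conditions for naming: an adjusted p under 0.05, a mean of at least 50 counts over the 15 libraries and no overlap between tissues. The 10 with the largest differences had log2 fold changes of 1.5 to 2.14 and lengths of 986 to 2978 bp. The first lies at chr12:113839675-113841562. Its exocrine libraries gave 28.9, 22.2, 23.0, 13.9 and 17.9 CPM. Control P180 islets gave 4.26, 1.95, 8.49, 4.90 and 2.21 CPM, and small-litter P180 islets 4.55, 2.75, 10.7, 2.81 and 4.15 CPM. Every exocrine library was above every islet library, and among islets replicate 3 of each group was the highest. The log2 fold change was 2.14 (SE 0.31, adjusted p = 8.71e-05), and 2.32 without control P180 replicate 3. P21 islets, at 2.16 to 12.6 CPM with a median of 4.30 CPM, spanned nearly the same range as P180 islets, and their own difference from exocrine tissue was 1.96.

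At chr17:25799499-25800703 the levels were higher in every group. Exocrine libraries gave 74.8, 69.2, 68.4, 26.9 and 45.2 CPM. Control P180 islets gave 26.1, 15.6, 26.2, 16.8 and 15.2 CPM and small-litter P180 islets 21.7, 16.2, 17.0, 24.8 and 14.3 CPM. The exocrine libraries were spread over nearly 3-fold, and the lowest of them lay just above the highest islet value. The log2 fold change was 1.52 (SE 0.21, adjusted p = 4.20e-05). The interval at chr1:197067145-197069907 was tighter, with exocrine values of 40.0, 23.4, 26.4, 26.1 and 30.9 CPM and P180 islet values from 6.68 to 13.2 CPM with a median of 9.38 CPM. Exocrine and islet values there were separated by a wide gap, and the log2 fold change was 1.62 (SE 0.18, adjusted p = 6.58e-06).

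At chr7:53432339-53434725 young islets lay lower still. Its exocrine values were 28.1, 17.4, 21.3, 14.2 and 21.5 CPM, its P180 islet values ran from 4.68 to 9.59 CPM with a median of 7.0 CPM, and its P21 islet values from 1.85 to 7.65 CPM with a median of 4.64 CPM. Islets of the 2 ages overlapped, and exocrine tissue lay above both. The log2 difference was 1.52 (SE 0.21, adjusted p = 4.38e-05) against P180 islets and 2.08 against P21 islets, while the age change of 0.58 (95% interval 0.09 to 1.08) had an adjusted p of 0.416. The interval at chr4:33261693-33264457 leaned the other way, with a log2 difference of 1.51 against P180 and 1.07 against P21 islets and an age change of -0.41 (95% interval -0.88 to 0.05, adjusted p = 0.589). The other 5 had differences of 1.5 to 1.66 against P180 islets and 1.25 to 1.58 against P21 islets, and none of the 10 passed the age test, with adjusted p from 0.416 to 0.969.

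On the lower side 441 intervals met the same conditions, and the 10 with the largest differences had log2 fold changes of -4.01 to -3.16 and lengths of 258 to 1645 bp. The largest lies at chr14:79125036-79125490. Its exocrine libraries gave 3.23, 0.414, 1.07, 2.25 and 2.36 CPM, 51 reads in all. Control P180 islets gave 43.2, 37.6, 5.04, 42.6 and 38.6 CPM, and small-litter P180 islets 46.3, 30.3, 15, 22.3 and 25.6 CPM. The other 9 islet libraries held at least 15 CPM, and control P180 replicate 3 alone came close to the exocrine values. The log2 fold change was -4.01 (SE 0.50, adjusted p = 4.65e-05), and -4.16 without that library. P21 islets ran from 14.9 to 51.5 CPM, and the age change was 0.00 (95% interval -0.59 to 0.59).

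The interval at chr2:116802370-116803045 was the best covered of the 10. Its exocrine values were 8.33, 5.59, 6.02, 5.39 and 7.85 CPM, and its islet values 70.2, 84.7, 20.1, 64.8 and 77.8 CPM in control and 86.3, 59.7, 73.3, 64.0 and 61.7 CPM in small-litter mice at P180. Replicate 3 of the control mice was again the lowest islet library, and all others lay at 59.7 CPM or above. The log2 fold change was -3.33 (SE 0.27, adjusted p = 3.26e-07), and -3.46 without it. At chr15:78756449-78757091 exocrine values were 4.08, 1.24, 1.72, 1.35 and 5.50 CPM, against 8.49 CPM in control P180 replicate 3 and 30.9 to 50.6 CPM in the other 9 islet libraries. The log2 fold change was -3.67 (SE 0.40, adjusted p = 1.09e-05). At chr12:71927448-71928260 exocrine replicate 4 held no read and the other 4 gave 0.829 to 2.98 CPM, while P180 islets ran from 6.10 to 22.3 CPM with a median of 15.7 CPM.

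Control P180 replicate 3 was the lowest of the 10 islet libraries at 7 of these 10 intervals, and the highest at 2 of the 10 named on the higher side. All 20 named intervals kept an adjusted p under 0.05 with the same direction in every refit made, including those that left out 1 library. On the lower side the difference from P21 islets was between -4.08 and -3.18, and the age change of islets between -0.64 and 0.18 with adjusted p from 0.25 to 1. The most negative age change was that of chr8:93393071-93393598, where P21 islets had a mean of 58.0 ± 17.7 CPM (SD, n = 10) and P180 islets 36.9 ± 12.3 CPM (SD, n = 10), against 3.44 ± 2.50 CPM (SD, n = 5) in exocrine tissue. Its age change of -0.64 had a 95% interval of -1.06 to -0.22 and an adjusted p of 0.25.

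**Figure D2:**
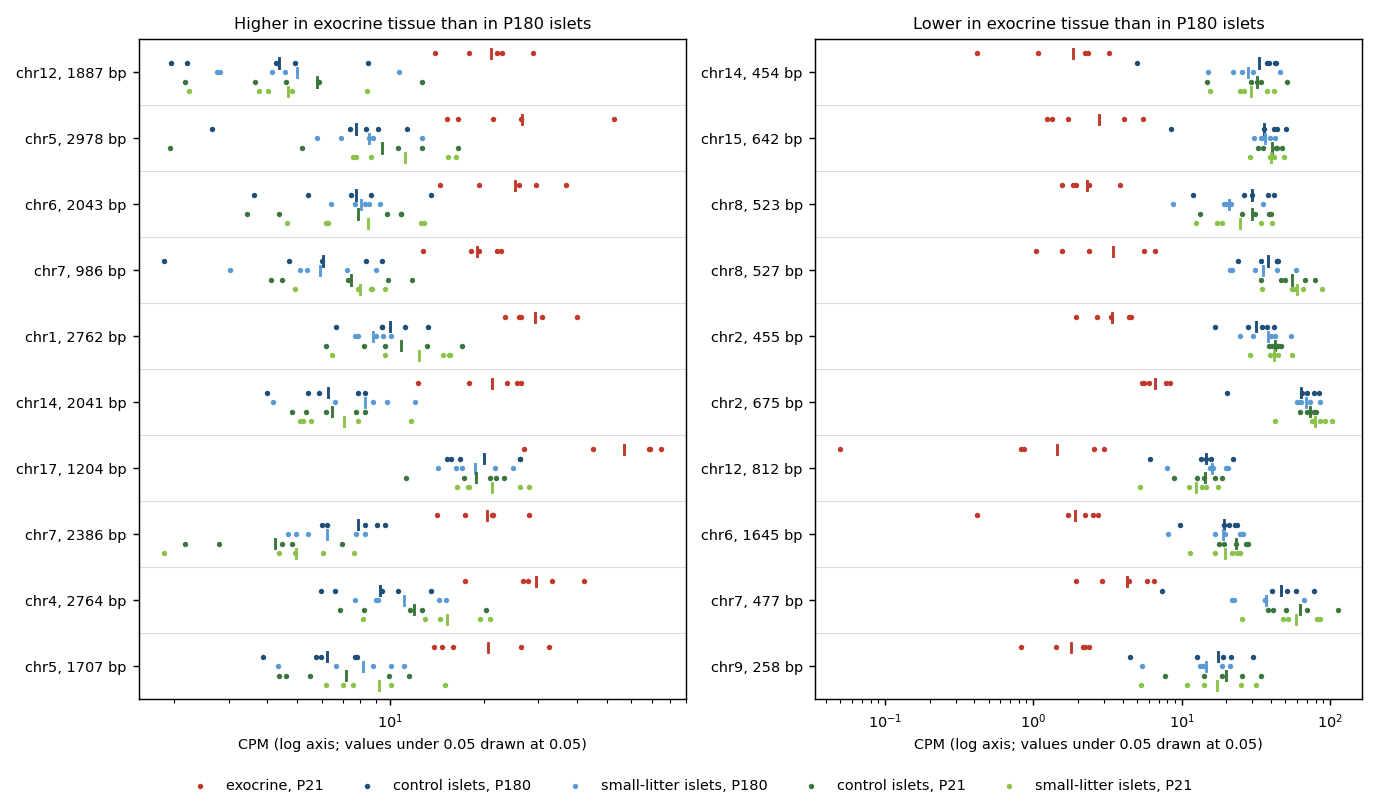
CPM (log axis) of the 20 intervals named for the comparison with P180 islets, 1 row each, labelled by chromosome and length. Points are libraries, 5 per group, and vertical ticks are group means, for exocrine tissue (red), P180 islets (blue tones) and P21 islets (green tones). At each interval the exocrine points lie on one side of all 10 P180 islet points. In every row on the right the lowest dark blue point is control P180 replicate 3. At 7 of these 10 it is the lowest P180 islet point of either litter group.

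Most called intervals stood alone, 2525 on the higher side and 2926 on the lower side, and others adjoined. Adjoining intervals share an end site and are not independent, and 9943 of the tested intervals had a tested neighbour. Of 5889 adjoining pairs of tested intervals, both members were called at 770, in the same direction at 694 and in opposite directions at 76. Unbroken runs of 4 called intervals numbered 3 on the higher side and 4 on the lower side, and runs of 3 numbered 45 and 32. At chr15:78755618-78757722 a run of 4 covered 2104 bp and included the interval at 78756449 described above. Exocrine means along it were 9.61, 2.78, 1.86 and 0.666 CPM, and P180 islet means 55.7, 36.4, 16.0 and 5.35 CPM. The whole stretch was low in exocrine tissue, by log2 differences of -2.54, -3.67, -3.04 and -2.91, with the greatest adjusted p at 0.000145.

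The run at chr7:148650177-148653249 was graded. From its first to its last interval the log2 difference was -0.38, -1.23, -2.33 and -2.97, and the adjusted p 0.0415, 0.000666, 3.25e-05 and 0.000107. P180 islet means along it were 73.0, 46.5, 21.8 and 6.03 CPM, and exocrine means were 57.1, 20.2, 4.34 and 0.752 CPM. The tissues thus differed least at the first interval and most at the last. The first interval's call was lost with RLE scaling factors (-0.35, adjusted p = 0.0666), with DESeq2 (adjusted p = 0.0552), with all 25 libraries in one fit (adjusted p = 0.0687) and in 7 refits that left out 1 library, which leaves a run of 3. Along the run at chr15:25857730-25863270, P180 islets lay between exocrine tissue and P21 islets at all 4 intervals. At its second interval, chr15:25859830-25860476, the means were 129 ± 19.4 CPM (SD, n = 5) in exocrine tissue, 414 ± 99.8 CPM (SD, n = 10) in P180 and 571 ± 83.5 CPM (SD, n = 10) in P21 islets. The difference was -1.70 (SE 0.20) against P180 and -2.19 (SE 0.15) against P21 islets, and the age change of -0.46 had an adjusted p of 0.265. Control P180 replicate 3, at 159 CPM, was the lowest P180 library there, and the other 9 ran from 356 to 510 CPM.

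On the higher side the run at chr8:123073824-123077849 differed among its members in the change with age. Its first interval had means of 29.0, 19.6 and 10.5 CPM in exocrine tissue, P180 islets and P21 islets, and its islet level rose with age by 0.90 on the log2 scale (SE 0.17, adjusted p = 0.0206), or 0.84 without control P180 replicate 3 (adjusted p = 0.0431). The third interval had 20.6, 13.0 and 13.5 CPM, with an age change of -0.06 (95% interval -0.34 to 0.22). The tissue difference against P180 islets was similar at both, 0.54 and 0.64. The run at chr10:126720490-126726400 showed differences of 0.59 to 1.16 against P180 islets and age changes of -0.18 to 0.22, none of which passed the age test. Tissue calls at single members of these runs were lost without 1 exocrine library, for example the first of the chromosome 8 run without replicate 1 (adjusted p = 0.0614) or 2 (adjusted p = 0.0508), the first of the chromosome 10 run without replicate 1 (adjusted p = 0.0806) or 5 (adjusted p = 0.073), and the first of the run at chr15:25857730 without replicate 5 (adjusted p = 0.066).

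**Figure D3:**
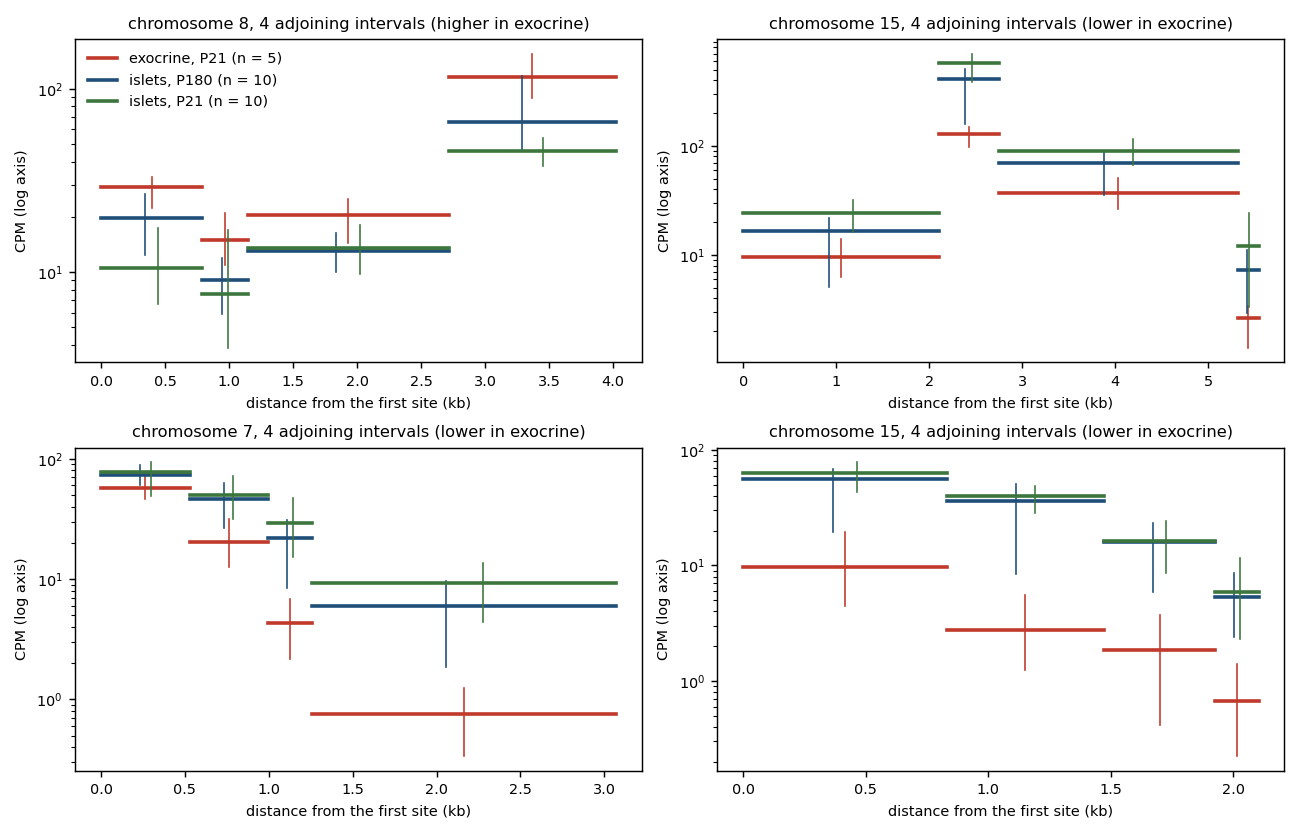
Mean CPM (log axis) over 4 runs of adjoining intervals, plotted against distance from the first site (kb). Horizontal bars span an interval at the group mean and thin vertical lines run from the lowest to the highest library, for exocrine tissue (red, n = 5), P180 islets (blue, n = 10) and P21 islets (green, n = 10). In the 3 runs that are lower in exocrine tissue the red bars lie below both islet bars throughout, and in the chromosome 7 run the gap widens from -0.38 to -2.97 on the log2 scale.

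Set beside P21 islets with the same 5 exocrine libraries, 2594 of 22280 intervals (11.6%) were higher in exocrine tissue and 3762 (16.9%) lower, with median log2 differences of 0.76 and -1.17. Over 4-fold differences numbered 27 (0.121%) and 530 (2.38%), and over 2-fold differences 746 (3.35%) and 2344 (10.5%). All exocrine values lay above all P21 islet values at 965 intervals (4.33%) and below them at 1197 (5.37%). The over 4-fold counts against P180 islets were 38 and 268. With the length trend removed the over 4-fold counts were 39 and 257 against P21 and 34 and 171 against P180 islets, and the higher share of all P21 calls moved from 40.8% to 51.2%. Since both comparisons use the same exocrine libraries, their counts are given side by side and no overlap is drawn from them. The spread between mice also differed, with a common biological coefficient of variation of 33.4% in the P21 and 27.0% in the P180 comparison. On simulated counts 38 of 100 intervals changed 2-fold were recovered against P21 islets and 72 against P180 islets. Far fewer intervals were changed there than were called in the data, so these rates do not carry over to the counts above. A difference between the counts of calls is not by itself a change with age.

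Intervals chosen in the P21 comparison show what became of the clearest early differences. Of the 5 named on its higher side, all were still higher in exocrine tissue than in P180 islets, by log2 differences of 0.90 to 1.34 in place of 2.32 to 2.61, and the choice itself favours a large early value. At chr4:108612692-108613886 the exocrine values were 46.2, 58.0, 41.5, 32.6 and 40.8 CPM. P21 islets gave 6.54, 4.83, 8.04, 7.94 and 7.98 CPM in control mice and 14.8, 3.36, 11.9, 10.2 and 10 CPM in small-litter mice. P180 islets gave 11.1, 9.93, 40.3, 9.16 and 10.5 CPM in control and 11.8, 21.8, 25.5, 14.8 and 15.9 CPM in small-litter mice. Control P180 replicate 3 alone reached the exocrine range, and the other 9 P180 values also lay above the median P21 value of 8.01 CPM. The difference from P180 islets was 1.34 (SE 0.28, adjusted p = 0.0019), and the age change of 1.02 (SE 0.28, adjusted p = 0.188) did not pass the test and was 0.68 without that library.

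At the neighbouring intervals chr2:118518699-118519375 and chr2:118519375-118519954, which share a site, exocrine means were 307 ± 101 and 91.5 ± 19.3 CPM (SD, n = 5). P180 islet medians were 97.3 and 31.9 CPM and P21 islet medians 49.2 and 14.1 CPM, so that adult islets stood between young islets and exocrine tissue at both. The second interval rose with age, by 1.36 (SE 0.27, adjusted p = 0.0312), and the first did not pass the test, at 1.33 (SE 0.29, adjusted p = 0.0804). Control P180 replicate 3 held 352 and 89.6 CPM there, against 67.3 to 184 and 20.5 to 53.7 CPM in the other 9. Without it the age changes were 0.97 (adjusted p = 0.0728) and 1.09 (adjusted p = 0.0328).

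None of the 5 named on the lower side of the P21 comparison passed the age test, and the intervals of their age changes were wide. The shortest, chr2:28764624-28764747, is 123 bp long and held 5 reads in all over the 5 exocrine libraries, with values of 0.340, 0, 0.215, 0 and 0.314 CPM. P180 islets ran from 1.33 to 24.9 CPM with a median of 15.6 CPM and P21 islets from 4.26 to 39.9 CPM with a median of 15.8 CPM. Every islet library of either age was above every exocrine library. The fitted differences of -6.06 and -6.39 rest on those few exocrine reads, and the age change was -0.29 (95% interval -1.22 to 0.63). At chr9:90164504-90164671 exocrine tissue held 9 reads in all, P180 islets a median of 13.0 CPM and P21 islets 16.8 CPM, and control P180 replicate 3, at 0.530 CPM, fell within the exocrine range. Its age change was -0.76 (95% interval -1.73 to 0.21). At chr8:93393071-93393598 and chr7:56502300-56502777 the age changes were -0.64 and -0.53 (95% intervals -1.06 to -0.22 and -1.21 to 0.16), and at chr14:79125036-79125490 0.00, with adjusted p from 0.25 to 1 over the 5.

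The test of whether a tissue difference had shrunk or grown is the age change of islets itself, fitted on the 20 islet libraries. It called 37 of 22207 intervals (0.167%) higher at P180 and 5 (0.0225%) lower. Against P21 islets 39 of these 42 also differed from exocrine tissue, all of them in the direction in which the islets changed, and against P180 islets 23 did. None of these 39 moved away from exocrine tissue. The other 3 did not differ from exocrine tissue by the test at either age. One of them, chr6:124665810-124667411, fell by 0.51 on the log2 scale (adjusted p = 0.0374), from a difference of -0.18 (adjusted p = 0.332) at P21 to one of 0.36 (adjusted p = 0.0746) at P180, and is named here after its values were seen. The P21 libraries enter both the age change and the early tissue difference, which ties their directions together. Within control mice alone the age test called 0 intervals with edgeR (1015 at an unadjusted p under 0.05) and within small-litter mice 0 (1120), and the test of the difference between litter groups called 0 (211).

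The size of the age test's calls depended on the settings more than that of the tissue comparison. Leaving out 1 library gave 16 to 42 increases, the lowest without small-litter P180 replicate 5. Small-litter P180 replicate 4 and control P21 replicate 3 gave 19 each and small-litter P21 replicate 4 gave 24. Without control P180 replicate 3 there were 35, and 33 of the 37 increases and 3 of the 5 decreases were among the calls. Without the 3 islet libraries that had the most intervals at 0 there were 5 increases and 0 decreases, while DESeq2 called 99 and 41.

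Among the 37 increases the remaining difference from exocrine tissue varied. At 21 of them exocrine tissue was still higher than P180 islets, by log2 differences of 0.38 to 1.32, where the differences from P21 islets had been 1.02 to 2.61. At the other 16 the difference from P180 islets was between -0.06 and 0.65 and did not pass the test. For 9 of the 37 the 95% interval of that difference lay wholly within 1.5-fold of equality. Of the 5 decreases, 2 remained higher in P180 islets than in exocrine tissue.

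The 10 largest age changes toward exocrine tissue comprised 9 increases and 1 decrease. At chr11:94247192-94247996, P21 islets gave 9.30, 4.11, 6.80, 4.79 and 4.89 CPM in control and 7.41, 1.79, 8.09, 5.80 and 4.16 CPM in small-litter mice. P180 islets gave 16.5, 11.4, 37.1, 9.59 and 19.9 CPM in control and 8.90, 15.7, 17.5, 14.9 and 21.7 CPM in small-litter mice, and exocrine tissue 38.6, 30.7, 22.1, 27.4 and 43.7 CPM. Only 1 adult value, 8.90 CPM, fell below the highest young value of 9.30 CPM, and only control P180 replicate 3 reached well into the exocrine range. The islet level rose by 1.61 (SE 0.27, adjusted p = 0.0142), and by 1.40 without that library (adjusted p = 0.0224). The difference from exocrine tissue was 2.46 at P21 and 0.90 (SE 0.25, adjusted p = 0.0116) at P180.

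The interval at chr8:111345623-111346858 had the largest early difference on the higher side. Its P21 islets ran from 4.11 to 9.87 CPM with a median of 5.12 CPM, its P180 islets from 9.28 to 27.8 CPM with a median of 12.4 CPM, and its exocrine libraries gave 42.7, 32.3, 38.5, 29.4 and 37.1 CPM. Adult islets overlapped young islets only at the edge and lay below all exocrine values. The islet level rose by 1.33 (SE 0.22, adjusted p = 0.0142), or 1.11 without control P180 replicate 3, and exocrine tissue remained 1.32 (SE 0.22, adjusted p = 0.000217) above P180 islets. At chr16:30019110-30020330 the P21 and P180 islet medians were 14.9 and 29.6 CPM and the exocrine values 41.8 to 69.9 CPM. Its age change of 1.12 (SE 0.23, adjusted p = 0.0398) was 0.86 (adjusted p = 0.0359) without that library, which at 67.3 CPM lay in the exocrine range.

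At 4 of the 10 the difference from exocrine tissue no longer passed the test at P180. The clearest was chr7:114692369-114693781, where P21 islets gave 18.2, 15.7, 8.35, 10.4 and 13.6 CPM in control and 11.4, 15, 19.4, 16.2 and 14.0 CPM in small-litter mice. P180 islets gave 40.1, 25.2, 40.6, 25.1 and 27.6 CPM in control and 21.7, 28.1, 27.1, 20.2 and 41.0 CPM in small-litter mice, and exocrine tissue 32.5, 41.4, 37.2, 42.0 and 30.6 CPM. All adult islets were above all young islets, and adult islets overlapped exocrine tissue. The age change was 1.06 (SE 0.17, adjusted p = 0.0142), and 1.00 (adjusted p = 0.0224) without control P180 replicate 3. The difference from exocrine tissue went from 1.32 at P21 to 0.29 at P180 (95% interval -0.07 to 0.65, adjusted p = 0.208).

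The neighbours chr1:189430670-189431030 and chr1:189431030-189431318 share a site and rose together, by 1.56 (SE 0.29, adjusted p = 0.0206) and 1.63 (SE 0.32, adjusted p = 0.0283). Medians of the first were 3.13 CPM in P21 islets, 11.8 CPM in P180 islets and 13.8 CPM in exocrine tissue, and those of the second 1.05, 3.69 and 6.46 CPM. Exocrine tissue remained 0.25 (95% interval -0.28 to 0.79) and 0.65 (0.05 to 1.25) above P180 islets, with adjusted p of 0.467 and 0.0892. Both are thinly covered, with 17 reads in the 5 control P21 libraries at the second. Its age change missed the threshold without control P180 replicate 3 (1.5, adjusted p = 0.0572), where exocrine tissue was 0.76 higher (adjusted p = 0.0418). The first kept its age call (1.49, adjusted p = 0.0441).

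The 1 decrease lies at chr4:22630628-22630796, 168 bp long. P21 islets ran from 7.67 to 24.7 CPM with a median of 15.3 CPM and P180 islets from 3.45 to 9.91 CPM with a median of 6.69 CPM, and exocrine tissue gave 7.48, 8.29, 8.60, 5.61 and 6.28 CPM. Adult islets and exocrine tissue lay in one range, below all but 2 of the young islet libraries. The islet level fell by 1.20 on the log2 scale (SE 0.23, adjusted p = 0.0283), and by 1.12 (adjusted p = 0.0497) without control P180 replicate 3, and the difference from exocrine tissue went from -1.19 at P21 to 0.06 (95% interval -0.46 to 0.57) at P180. At chr17:86723659-86724949 and chr4:154547184-154548292 the islet level rose by 1.17 (adjusted p = 0.0384) and 1.11 (adjusted p = 0.0158), or 0.92 (adjusted p = 0.0497) and 0.97 (adjusted p = 0.0224) without control P180 replicate 3. Exocrine tissue remained 0.68 and 0.70 above P180 islets there, with adjusted p of 0.0454 and 0.0317.

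**Figure D4:**
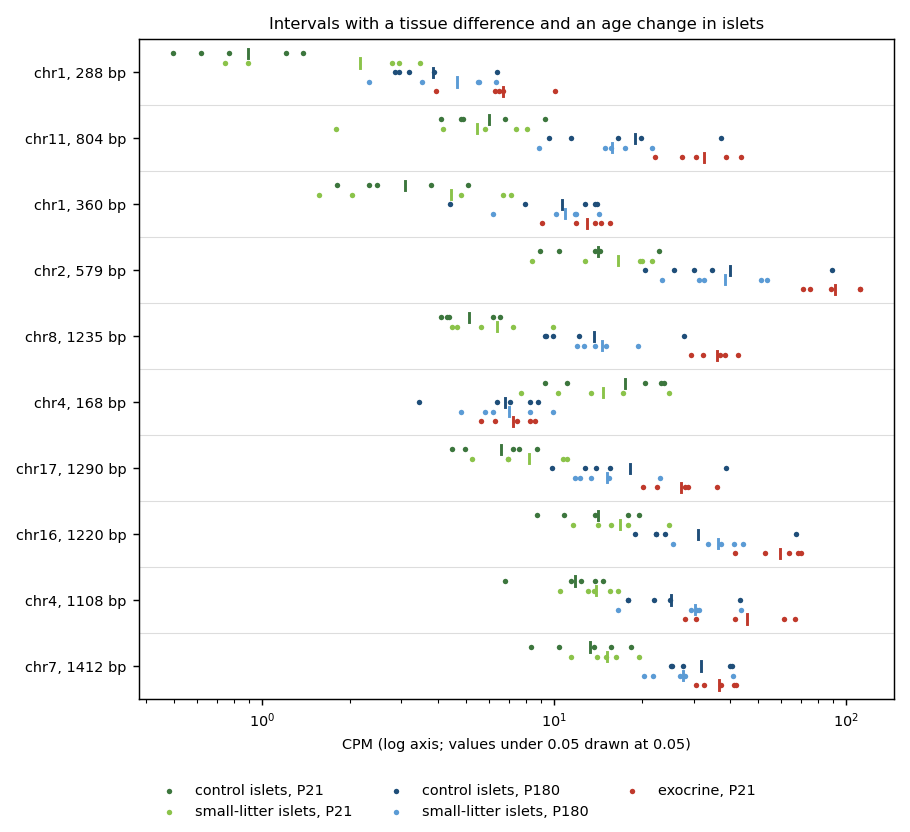
CPM (log axis) of the 10 intervals with the largest age change of islets toward exocrine tissue, 1 row each, labelled by chromosome and length. Points are libraries, 5 per group, and ticks are group means, ordered from P21 islets (green tones) over P180 islets (blue tones) to exocrine tissue (red). In 9 rows P180 islets lie to the right of P21 islets, and at the 168 bp interval of chromosome 4 they lie to the left, with exocrine tissue at 5.61 to 8.60 CPM.

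For the bulk of the tissue differences the age test gave bounds rather than calls. Of 3090 exocrine-higher intervals with an age fit, 21 rose with age and none fell, and for 1655 (53.6%) the 95% interval of the age change lay within 1.5-fold. Of 3584 exocrine-lower intervals, 2 fell with age, and for 1526 (42.6%) the interval lay within 1.5-fold. Over all intervals in the age fit 55.5% were bounded in this way and 0.189% were called in either direction, so the bound was met at a similar share on the higher side and a smaller one on the lower side. P180 libraries enter both the choice of these intervals and the age fit.

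To describe small age changes without shared libraries, intervals were chosen with exocrine tissue and the P180 islets of one litter group, and their age change was read in the other litter group. The shares that follow carry no test, since neighbouring intervals and the libraries' common features make them dependent. Chosen with control P180 islets, 56.4% of 2103 exocrine-higher intervals had a higher level at P180 than at P21 in small-litter islets, with a median age change of 0.04, beside 50.1% of all intervals. Of 2619 exocrine-lower intervals, 67.9% had a lower level at P180, with a median of -0.14, beside 49.9%. In the mirrored choice the age change of control islets went toward exocrine tissue at 58.6% of 1336 higher intervals (median 0.06) and at 73.2% of 2154 lower intervals (median -0.16).

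These shares differed by the size of the tissue difference. In small-litter islets, 70.0% of the exocrine-higher intervals that differed by up to 2-fold had an age change toward exocrine tissue, against 31.2% of 688 at 2 to 4-fold and 9.68% of 31 over 4-fold. In these small-litter islets, the larger the exocrine-higher difference, the more often adult islets stood further from exocrine tissue than young ones. On the lower side the order was the opposite, 54.5%, 74.1% and 85.3%. In control islets the higher side gave 66.1%, 45.0% and 33.3% (9 intervals in the last class) and the lower side 66.9%, 77.3% and 77.7%. With the length trend removed the order kept its direction in small-litter islets, at 61.8%, 45.9% and 30.0% on the higher side and 50.5%, 59.5% and 79.5% on the lower side, where all intervals gave 52.7% and 47.3%. In control islets it then gave 61.9%, 55.9% and 40.0%, and 63.7%, 67.1% and 71.4%, where all intervals gave 52.5% and 47.5%. The share of 55.9% at 2 to 4-fold thus lay above that of all intervals. The over 4-fold classes of the higher side then held only 20 intervals in small-litter and 10 in control islets.

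Interval length moved with the same shares. Among exocrine-higher intervals in small-litter islets, 71.6% of those up to 735 bp and 78.2% of those of middle length had an age change toward exocrine tissue, but 28.6% of those from 1652 bp, while all intervals of the same lengths gave 41.1%, 69.5% and 39.4%. On the lower side the shares were 74.0%, 54.0% and 57.1%, beside 58.9%, 30.5% and 60.6% of all intervals. In small-litter islets, called intervals of short and middle length thus had a higher share than all intervals of their length on both sides. Long called intervals had a lower share than all long ones. In control islets the called shares were 75.9%, 72.1% and 39.4% on the higher side, beside 44.3%, 58.7% and 47.5%, and 78.2%, 68.2% and 63.1% on the lower side, beside 55.7%, 41.3% and 52.5%, so that long exocrine-lower intervals there did exceed the others of their length. The part of length in the shares was otherwise not tested.

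Single libraries moved the shares as well. Without control P180 replicate 3, 45.3% of the exocrine-higher and 57.3% of the exocrine-lower intervals had an age change toward exocrine tissue in control islets, in place of 58.6% and 73.2%. Without small-litter P180 replicate 3 the shares in small-litter islets were 48.9% and 59.2%, in place of 56.4% and 67.9%. When control P180 replicate 3 was instead left out of the choice of intervals, the shares in small-litter islets were 65.9% of 3007 and 68.3% of 3746.

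A score per mouse, the mean log2 CPM of the exocrine-higher intervals minus that of the exocrine-lower ones, placed adult islets near young islets and far from exocrine tissue. With intervals chosen from exocrine tissue and control P180 islets, small-litter islets scored 0.166 ± 0.319 (SD, n = 5) at P21 and 0.304 ± 0.349 (SD, n = 5) at P180, and exocrine tissue, which entered the choice, 2.07 ± 0.236 (SD, n = 5). With intervals chosen from small-litter P180 islets, control islets scored -0.491 ± 0.513 (SD, n = 5) at P21 and -0.260 ± 0.479 (SD, n = 5) at P180, and exocrine tissue 1.77 ± 0.206 (SD, n = 5). Both differences between ages, 0.139 and 0.231, were smaller than the spread between mice. Control P180 replicate 3 scored 0.587 and the other 4 control P180 mice -0.540 to -0.356, and without it the difference in control islets was 0.019.

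**Figure D5:**
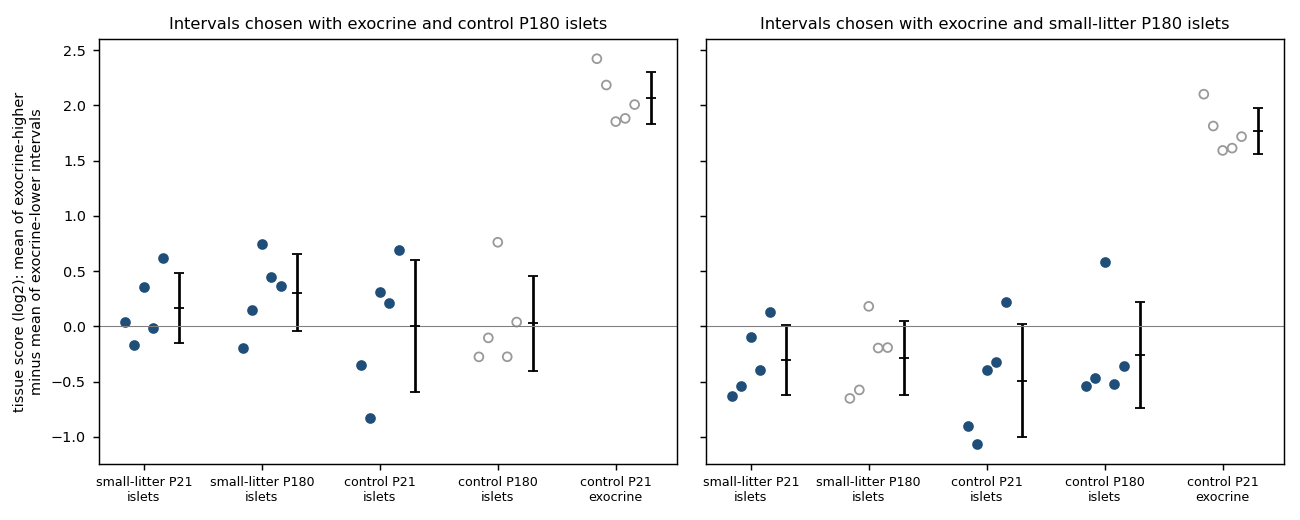
Tissue score per mouse (y axis, log2 units) in each group, with intervals chosen from exocrine tissue and control P180 islets (left) or small-litter P180 islets (right). Filled points are mice of groups whose libraries did not enter the choice and open points those that did, and bars give the group mean ± SD (n = 5). Islet mice of both ages overlap, between -1.07 and 0.762, and exocrine mice lie from 1.59 to 2.42.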

How the data were processed

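Genomic DNA of 25 mice was profiled by MSA-seq. Per the labels' protocols, DNA was digested with SmaI and then XmaI, amplified through ligated adaptors, sheared and sequenced from both ends. Bowtie 0.12.9, cutadapt, FastQC 0.10.1 and build mm9 are listed in the submitters' processing notes. The deposited values are raw read counts per interval. For read assignment and duplicate removal, details were not given in the sources used here. Reads amplified by PCR are not independent molecules, so intervals of precision rest on the spread between mice.

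Testing used edgeR 4.0.16 under R 4.3.3 (filterByExpr, TMM, 1 mean per group, robust quasi-likelihood test, Benjamini-Hochberg at 0.05 over all autosomal intervals tested). The contrasts were exocrine tissue minus the average of both P180 islet groups, the same with P21 islets, and P180 minus P21 islets over 20 libraries. The common biological coefficient of variation was 27.0%, 33.4% and 30.4%. Standard errors and 95% intervals were derived from the test statistic. Log2 scores used a prior count of 2. No libraries were near-identical, and none was left out of the main fits. On simulated counts, 72 of 100 intervals changed 2-fold and 99 of 100 changed 4-fold were recovered against P180 islets, with 9 false calls among 22071. Against P21 islets the values were 38, 98 and 5 among 22076, and for the age test 78, 97 and 10 among 22009. Only 100 intervals per fold size were changed, far fewer than the tissue comparisons called, so these rates describe the simulation alone.

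Named intervals were those with the largest fold changes per direction at an adjusted p under 0.05, with a mean of at least 50 counts and no overlap between groups (10 for P180, 5 for P21 islets). For age, the 10 largest changes at intervals with a tissue difference were named, and for runs the 5 longest per direction. Intervals on 1 chromosome were counted and not named. Members, lists and rules were chosen with earlier results of these data known. Alternatives were other scaling factors and filters, DESeq2 1.42.0, limma 3.58.1 voom, all libraries in one fit, a replicate block, removal of length trends, a fold threshold, the sex chromosomes, and each library left out. Leaving out control P180 replicate 3 from the named values and from the choice of intervals, leaving out several libraries together, and size classes with length trends removed were added after seeing the data. Python 3.11.15 and matplotlib 3.10.9 made the figures.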

Additional observations from a re-analysis of the deposited data

Results flagged for a closer look

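In each group of 5 mice, the named intervals and the tissue scores were searched for a highest or lowest value that stood far from the other 4. Of 146 groups of values, 10 held such a value, at a cut-off that chance passes in 1 of 20 groups. The pooled count is no guide to chance here, since nearly all the values came from 1 library. The groups are not independent, since the same libraries recur and some intervals adjoin. Of the 10 values, 9 belonged to control P180 replicate 3. It held 5.04 CPM at chr14:79125036-79125490, where the next lowest control P180 value was 37.6 CPM. Its values were high at chr8:111345623-111346858 (27.8 CPM, next 12.1), chr2:118519375-118519954 (89.6 CPM, next 34.7), chr2:118518699-118519375 (351.6 CPM, next 94.6) and chr4:108612692-108613886 (40.3 CPM, next 11.1). The same held at chr17:86723659-86724949 (38.7 CPM, next 15.5), chr16:30019110-30020330 (67.3 CPM, next 23.9) and chr4:154547184-154548292 (43.2 CPM, next 25), and for its tissue score of 0.587 (next -0.356). At each of these its value lay toward that of exocrine tissue. The tenth value was small-litter P180 replicate 3 at chr12:113839675-113841562, with 10.7 CPM where the next was 4.55 CPM.

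The X chromosome stood outside the comparison. In a fit that included the sex chromosomes, 445 of its intervals were tested. Of these, 76 (17.1%) were lower and 22 (4.94%) higher in exocrine tissue than in P180 islets. Over the autosomal intervals of the main fit the shares were 16.1% and 14.2%. The lower share on X was thus near the autosomal one, and the higher share was smaller. The sex of the mice was not analysed here.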

How the results depend on the processing

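Replicate numbers were not treated as pairs, since no label says that they mark a shared litter or day and same-numbered libraries' deviations correlated from -0.359 to 0.652. Between the P180 islet groups all 5 correlations were positive, 0.032 to 0.558, and 2 of 5 libraries correlated best with their own number. Between the P21 islet groups they ran from -0.188 to 0.652, and 3 of 5 correlated best with their own number. The numbers may thus mark something shared at either age. With the replicate number as a block, 3287 intervals were higher and 3628 lower than in P180 islets, 2917 and 3598 than in P21 islets, and for age 38 rose and 9 fell. A mean of at least 50 counts, which leaves fewer intervals to test, gave 1989 higher than P180 and 1654 higher than P21 islets, and 9 age decreases. Tests against a 1.5-fold change gave 354 higher and 898 lower (P180), 363 and 1421 (P21), and 0 and 0 (age). DESeq2 gave 99 increases and 41 decreases with age, and limma voom 73 and 25, with 3963 higher than P21 islets. With the length trend removed 60 intervals rose with age and 34 fell, and without the 3 libraries with the most intervals at 0, 5 and 0. In these cases the cause was not tested. Leaving out 1 library gave 2001 (without exocrine replicate 1) to 3707 higher and 2807 to 4249 lower than P180 islets, 2084 to 3545 and 2639 to 3766 for P21 islets, and 16 to 42 increases and 0 to 8 decreases with age. Age decreases were 0 without control P21 replicate 3 or small-litter P180 replicate 5, 2 or 3 without any of 7 other libraries, and 8 without small-litter P21 replicate 3.

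Shares with an age change toward exocrine tissue were, for intervals over 2-fold different, 30.3% (higher) and 75.5% (lower) in small-litter and 44.8% and 77.4% in control islets. With at least 50 counts they were 60.7% (higher) and 65.4% (lower) in small-litter and 66.3% (higher) in control islets, and with the length trend removed 56.0% of lower intervals in small-litter and 65.6% in control islets. Leaving out 1 library gave 48.9% to 59.3% and 59.2% to 75.4% in small-litter islets, and 45.3% to 66.2% and 54.8% (without control P21 replicate 2) to 79.3% in control islets. The score difference ran from 0.028 to 0.262 in small-litter and from 0.019 to 0.410 in control islets. No score difference changed direction, but the excess of lower over higher tissue calls did. Against P180 islets the higher calls were more numerous with the length trend removed (3500 and 3258 lower). The same held with all 25 libraries in one fit (3185 and 2953) and without exocrine replicate 5 (3167 and 3120). Against P21 islets it held with the length trend removed (3420 and 3259). Both exocrine-higher shares did fall below 50%, the small-litter one for intervals over 2-fold different and without small-litter P180 replicate 3, and the control one for intervals over 2-fold different and without control P180 replicate 3. With 1 library left out, 62 of 200 refits of the intervals named for age lost the age call. All 150 refits of those named for the P21 comparison kept the P21 call. For the P180 comparison 811 refits kept the call and 29 lost it, all of these 29 at members of runs.

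Depth limits the largest differences, where exocrine tissue held few reads, and no method here turns a count into a methylation level. Mice at P180 and exocrine tissue differ in age as well as tissue.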

Other observations

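The tissue differences were spread over all autosomes. The share of tested intervals higher in exocrine tissue than in P180 islets ran from 10.1% on chromosome 3 to 17.0% on chromosome 7, and the share lower from 14.0% on chromosome 19 to 21.1% on chromosome 12. Chromosome 12 had the highest lower share against P21 islets too, at 20.2%, with the same exocrine libraries. Its intervals had a median length of 1097.5 bp, within the range of 1013 to 1268 bp over the autosomes.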
